A study of Homo sapiens with 2 samples.

Results

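The Kruppel-like factors (KLFs) described here are 10 genes, KLF2, KLF3, KLF4, KLF5, KLF6, KLF9, KLF10, KLF11, KLF13 and KLF15, of 18 numbered KLF genes and 58735 genes in the deposited table. They were found by gene name, and the family was selected on the read counts of this same contrast, because KLF4 was lower and KLF5 higher in the knockout. Their levels and fold changes are therefore a description with no test. RNA was sequenced from 1 MAEL WT library and 1 MAEL KO library of the cell line labelled 8024, an established human liver cancer line of epithelial morphology. The labels also call it Alexander cells, and the methods PLC/PRF/5. The MAEL KO cells were transfected with an sgRNA and Cas9 plasmid against MAEL, a germline gene that many tumours express, then sorted and grown as single clones, so the clone, the culture and the knockout cannot be told apart. The labels call the wild-type cells non-treated, while the study elsewhere names its wild type a nontarget control, and which of these the sequenced cells were is not given in the sources used here.

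KLFs are transcription factors that share a set of C2H2 zinc fingers at the C-terminus, with which they bind GC-rich and CACCC-type DNA. Their N-terminal parts differ, and so do the partners they bring, such as acetyltransferases for the activators, CtBP for KLF3 and Sin3 for KLF9, KLF10, KLF11 and KLF13. KLF4 is known for cell-cycle exit and differentiation in gut and skin epithelium and as a factor used to reprogram cells to pluripotency, whereas KLF5 is known for its level in dividing epithelial cells. In liver, KLF15 is known for its part in amino acid breakdown and gluconeogenesis, and KLF9 for its induction by glucocorticoid and thyroid hormone.

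The DNA before the starts of KLF4, KLF5 and KLF2 is shown because these are the members that lay furthest from no change. The sequences are from RefSeq on GRCh38.p14, in the direction of transcription, and the capitals mark each CACCC box (CACCC) and GC box (GGGCGG) on either strand, the letters that KLF and SP proteins are known to bind. The KLF4 window is chr9:107489770-107490019 on the minus strand, the KLF5 window is chr13:73054726-73054975 on the plus strand, and the KLF2 window is chr19:16324576-16324816 on the plus strand.
KLF4: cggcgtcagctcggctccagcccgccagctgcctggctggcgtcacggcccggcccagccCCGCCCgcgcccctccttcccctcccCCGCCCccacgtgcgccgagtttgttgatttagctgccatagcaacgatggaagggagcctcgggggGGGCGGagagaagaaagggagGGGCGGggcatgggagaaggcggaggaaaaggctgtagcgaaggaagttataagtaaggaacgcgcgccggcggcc
KLF5: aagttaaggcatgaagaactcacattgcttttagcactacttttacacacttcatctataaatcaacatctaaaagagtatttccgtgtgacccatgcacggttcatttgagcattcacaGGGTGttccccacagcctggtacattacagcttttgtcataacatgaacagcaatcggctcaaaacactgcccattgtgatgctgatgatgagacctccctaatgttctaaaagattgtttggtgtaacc
KLF2: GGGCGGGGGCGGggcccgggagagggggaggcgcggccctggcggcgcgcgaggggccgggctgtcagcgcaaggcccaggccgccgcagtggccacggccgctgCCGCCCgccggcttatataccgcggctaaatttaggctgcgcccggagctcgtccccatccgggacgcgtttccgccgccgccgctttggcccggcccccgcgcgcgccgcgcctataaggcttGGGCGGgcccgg

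The KLF4 window held 4 GC boxes and no CACCC box, with a GC content of 69.2%. It lies inside the span of KLF4 in GENCODE 29, 107484852 to 107490482, downstream of the outermost start, with 0 bases in exons. The KLF5 window held 1 CACCC box and no GC box, with a GC content of 40.8% against a median of 58% over all 34788 windows of 250 bases. KLF5 has a second RefSeq start about which the same window was richer in GC, at 70.8%, with 2 GC boxes and 2 CACCC boxes. That window is not printed, because 213 of its 250 bases lie in an exon in GENCODE 29, and counts per gene do not show which start was used. The KLF2 window held 4 GC boxes, at a GC content of 80% over the full 250 bases.

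RefSeq windows were found for 8 of the 10 members, 10 windows in all, and KLF3 and KLF10 had none in the table. Besides the second KLF5 window, bases in exons were in the windows of KLF11 (180 and 46), KLF6 (72), KLF15 (34) and KLF2 (9). A GC box was in 8 of these windows, against 42.6% of all windows, and a CACCC box in 4, against 54.7%. The E-box CACGTG, which clock factors and MYC are known to bind, was in the windows of 4 members (KLF4, KLF6, KLF11 and KLF15), against 6.31% of all windows. The STAT-type letters TTCNNNGAA were in none of the 10 windows and in 6.57% of all. A match of letters describes the window only, and nothing follows from it about the binding of a factor.

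The 2 libraries held 19904136 counts (MAEL WT) and 20833332 counts (MAEL KO). MAEL itself had 1 count in MAEL WT and 0 in MAEL KO, which is no more than the floor of 3 counts, and its transcript could not check the labels. Liver epithelial markers were present: all 10 on the list had counts, 59 and 8550 for ALB and 12248 and 23308 for KRT8 in MAEL WT and MAEL KO. All 10 were higher in MAEL KO, with a median log2 fold change of 1.47, or 8 of the 10 when the libraries were scaled by reference genes, and their part in the KLF values was not tested. Defining markers of other cells were at or near 0, with PTPRC at 3 and 0 counts, CD3E and ACTA2 at 0 in both, VWF at 1 and 0, and COL1A2 at 1 in both. The whole lists summed to 1290 and 745 counts for 5 leukocyte markers, of which LYZ gave 1251 and 737, to 354 and 407 for 4 endothelial markers, of which PECAM1 gave 348 and 392, and to 221 and 41 for 6 fibroblast and stellate cell markers.

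All 10 KLF members had at least 10 counts in 1 library and so entered the comparison. Each log2 fold change sets MAEL KO over MAEL WT, from counts scaled by TMM (trimmed mean of M values) with 1 added. Its counting interval is a 95% exact Clopper-Pearson interval for the part of the gene's reads that fell in MAEL KO, and it covers counting error only. With 1 library per group no difference has a replicate check, no p-value is given, and higher or lower compares the libraries.

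With TMM, 5 members were higher and 5 lower in MAEL KO, where 48.0% of all 17887 genes tested were above 0 and 52.0% below. For 2 of the lower members, KLF9 and KLF10, the counting interval includes 0. The median log2 fold change of the members was 0.09, beside -0.04 over all genes tested. With reference genes 2 members were higher and 8 lower. KLF4 was the 1 member below -2 on the log2 scale, and 5.64% of all genes tested were that low. No member was above 2, where 2.16% of all genes lay. Below -1 there were 2 members, KLF4 and KLF2, against 16.5% of all genes, and above 1 there was 1, KLF5, against 10.2%. KLF5 did not stay above 1 with total counts, at 0.79, or with reference genes, at 0.34, and with reference genes KLF15 joined the members below -1, which were then 3. The other 7 lay between -1 and 1, as did 73.3% of all genes. Since the family was selected on this contrast, nothing is read from these shares. With total counts in place of TMM, the genes above 2 made up 17.0% of those past 2 in either direction, against 27.7% with TMM.

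**Figure D1:**
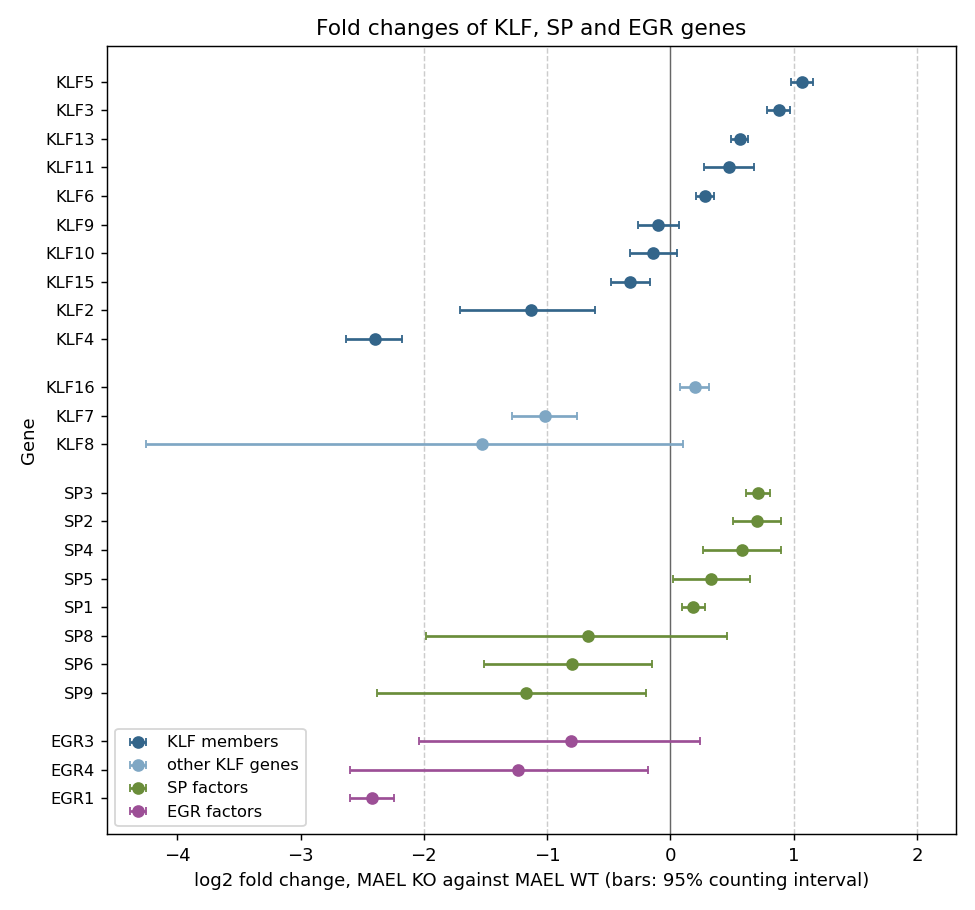
Log2 fold change, MAEL KO over MAEL WT (x axis), for each tested gene of the KLF, SP and EGR families (y axis), with 95% counting intervals as bars and dashed lines at 1 and 2 in either direction. KLF4, at -2.39, and EGR1, at -2.42, are the points below -2, and KLF5, at 1.07, is the highest of the KLF members.

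KLF4 (ENSG00000136826) is a minus-strand gene of chromosome 9 (GRCh38, 107484852 to 107490482) with 6 transcripts in GENCODE 29, of at most 5 exons. KLF4 had 1160 counts in MAEL WT and 190 in MAEL KO, or 1081 and 205 normalized counts. The level was thus lower in MAEL KO. This is a log2 fold change of -2.39 (counting interval -2.63 to -2.18), 5.26-fold lower in MAEL KO. Of all genes tested, 3.71% were lower than KLF4 on this scale. Its processed pseudogene KLF4P1 had 1 and 0 counts.

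KLF5 (ENSG00000102554) is a plus-strand gene of chromosome 13 (73054976 to 73077542) with 5 transcripts of at most 4 exons. KLF5 had 1496 counts in MAEL WT and 2708 in MAEL KO, a log2 fold change of 1.07 (counting interval 0.97 to 1.16), 2.09-fold higher in MAEL KO. KLF5 and KLF4 thus lay at opposite ends of the family. Per kilobase of gene length, the level of KLF5 was 1.21 times that of KLF4 in MAEL WT and 13.4 times in MAEL KO. This within-library ratio was 11.1 times larger in MAEL KO (95% conditional interval of the odds ratio 9.34 to 13.1, counting error only). Since both genes share a library, it does not depend on how the libraries were scaled. The family was selected because these genes moved in opposite directions, so a larger ratio was fixed in advance and the interval tests nothing.

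KLF2, known for the response of endothelium to blood flow and for quiescence of T cells, is the member nearest to KLF4 by transcript sequence, with an identity of 78.9% over 303 aligned bases. It had 105 counts in MAEL WT and 41 in MAEL KO, a log2 fold change of -1.13 (counting interval -1.70 to -0.61). The direction is that of KLF4, but KLF2 was the least expressed member in both libraries and its interval is the widest of the 10. The KLF2 pseudogenes KLF2P1, with 99 and 69 counts, and KLF2P4, with 103 and 44, had counts near those of the gene in MAEL WT, and in MAEL KO KLF2P1 had more counts than KLF2. Their best alignments with the KLF2 transcript had an identity of 74.6% and 71.3%, and both overlap other pseudogenes on the opposite strand, FAR2P1 and FAR2P4, while KLF2P4 also overlaps PLEKHB2. How many reads of these rows come from their neighbours was not tested.

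KLF6, a broadly expressed activator also studied as a tumour suppressor in liver, had the highest level per kilobase in MAEL WT. It had 2787 and 2928 counts in MAEL WT and MAEL KO, a log2 fold change of 0.28 (counting interval 0.21 to 0.36). KLF7, its nearest relative in the family with 82.9% identity over 269 aligned bases and not a member, went the other way, with 408 and 174 counts and a log2 fold change of -1.02 (counting interval -1.28 to -0.76). The sign for KLF6 depends on the scaling, as given further on.

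KLF3, a repressor that binds CtBP, had 1510 counts in MAEL WT and 2401 in MAEL KO, a log2 fold change of 0.88 (counting interval 0.79 to 0.97), the second highest of the members. It shares 688 bases at its start with KLF3-AS1, an antisense RNA with 24 and 44 counts. The strand setting of the counting is not given in the sources used here, so reads from the overlap cannot be told apart, but the antisense row is small beside that of KLF3.

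With TMM the members that recruit Sin3 lay on both sides of 0. With reference genes all of them were below 0, KLF13 at -0.16 and KLF11 at -0.25. KLF13, first described as an activator of CCL5 in T cells, had 2998 counts in MAEL WT and 3829 in MAEL KO, with a log2 fold change of 0.56 (counting interval 0.49 to 0.63). KLF11, a TGF-beta-inducible factor linked to a form of inherited diabetes, had 365 and 438 counts and a log2 fold change of 0.47 (counting interval 0.27 to 0.68). KLF9 had 661 and 534 counts and a log2 fold change of -0.10 (counting interval -0.26 to 0.07). KLF10, the other TGF-beta-inducible member, had 508 and 399 counts and a log2 fold change of -0.14 (counting interval -0.33 to 0.05). For KLF9 and KLF10 the counting interval includes 0, so with TMM no difference was detectable at this depth, while for the other 8 members it lies on 1 side of 0. With total counts KLF9 was at -0.37 and KLF10 at -0.41, and with reference genes they were at -0.82 and -0.86, all below these intervals.

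KLF15 had 811 counts in MAEL WT and 559 in MAEL KO, a log2 fold change of -0.33 (counting interval -0.48 to -0.17). It was at -0.60 with total counts and at -1.05 with reference genes. KLF15 was thus lower in the library in which the liver markers named above were higher, by an amount that depends on the scaling.

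**Figure D2:**
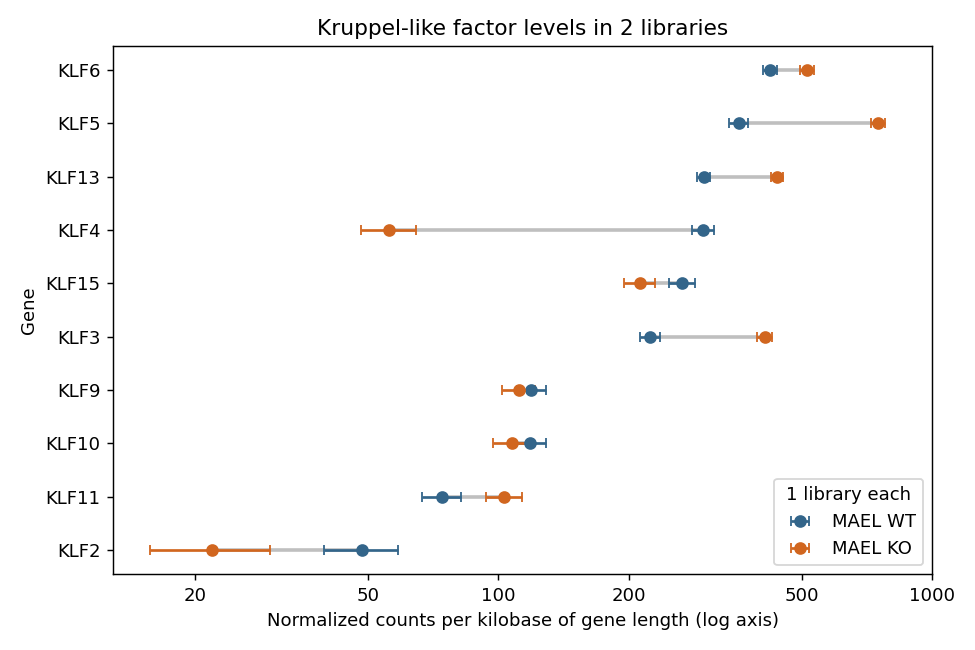
Level of each member in the MAEL WT and MAEL KO libraries, as TMM-normalized counts per kilobase of listed gene length on a log axis, with 95% exact Poisson intervals that cover counting error only. KLF4 is the gene with the widest gap between the libraries, from 295.5 to 56.0, and KLF5 is the highest in MAEL KO at 750.2.

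Levels of different genes are compared here per kilobase of gene length, as TMM-normalized counts per kilobase, a level and not a difference. In MAEL WT the order from the top was KLF6 at 423, KLF5 at 358, KLF13 at 297, KLF4 at 295.5, KLF15 at 265, KLF3 at 224, KLF9 at 119, KLF10 at 118, KLF11 at 74.1 and KLF2 at 48.5. The 95% Poisson intervals of neighbours overlapped for KLF13 and KLF4, for KLF4 and KLF15, and for KLF9 and KLF10, so those pairs have no order at this depth. In MAEL KO the order was KLF5 at 750.2, KLF6 at 514, KLF13 at 439, KLF3 at 411, KLF15 at 212, KLF9 at 111, KLF10 at 107, KLF11 at 103, KLF4 at 56.0 and KLF2 at 21.9. There the intervals overlapped for KLF13 and KLF3, for KLF9 and KLF10, and for KLF10 and KLF11. KLF4 moved from place 4 to place 9, KLF5 from place 2 to place 1, and KLF2 was last in both. The deposited FPKM values gave 14.5 and 2.74 for KLF4 and 17.6 and 36.7 for KLF5.

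A share of the summed level per kilobase of the 10 members does not depend on the scaling between libraries. KLF4 made up 13.3% of the sum in MAEL WT and 2.05% in MAEL KO. KLF5 made up 16.1% and 27.5%, and KLF3 10.1% and 15.1%. KLF6 kept nearly the same share, 19.0% and 18.9%, while KLF15 went from 11.9% to 7.77%. Over all 18 numbered KLF genes the shares of KLF4 were 11.1% and 1.76% and those of KLF5 13.5% and 23.5%. The difference is mostly KLF16, which binds Sin3, is not a member, and had 1217 and 1205 counts.

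**Figure D3:**
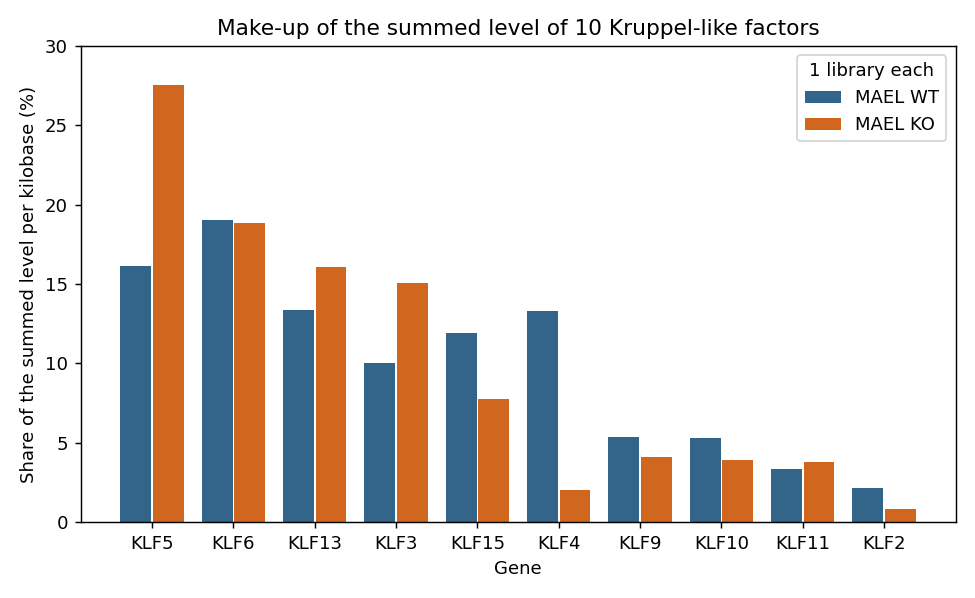
Share of each member in the summed counts per kilobase of the 10 members, in percent, in the MAEL WT and MAEL KO libraries (1 bar each). The KLF5 bar grows from 16.1% to 27.5% and the KLF4 bar shrinks from 13.3% to 2.05%, while the KLF6 bars are 19.0% and 18.9%.

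The scaling decides part of the family's direction, and the TMM factors of MAEL WT and MAEL KO were 1.10 and 0.91. Total counts in place of TMM moved the median of all genes tested by -0.27 on the log2 scale, and the geometric mean of 6 reference genes moved it by -0.71. KLF4 and KLF2 stayed lower and KLF5 and KLF3 higher under each of the 7 alternatives that could change a member's value, with KLF4 from -3.11 to -2.37, KLF2 from -1.84 to -1.06, KLF5 from 0.34 to 1.07 and KLF3 from 0.16 to 0.88. KLF6, KLF11 and KLF13 were higher except with the reference genes, where they were at -0.44, -0.25 and -0.16, and KLF6 was at 0.01 with total counts. The median of the members was -0.18 with total counts and -0.63 with the reference genes, so its sign is set by the scaling, and relative to the shift of all genes the members lay where they did with TMM. The 6 reference genes themselves lay from 0.05 for TBP to 1.27 for PPIA with TMM, so they do not give 1 common scale.

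**Figure D4:**
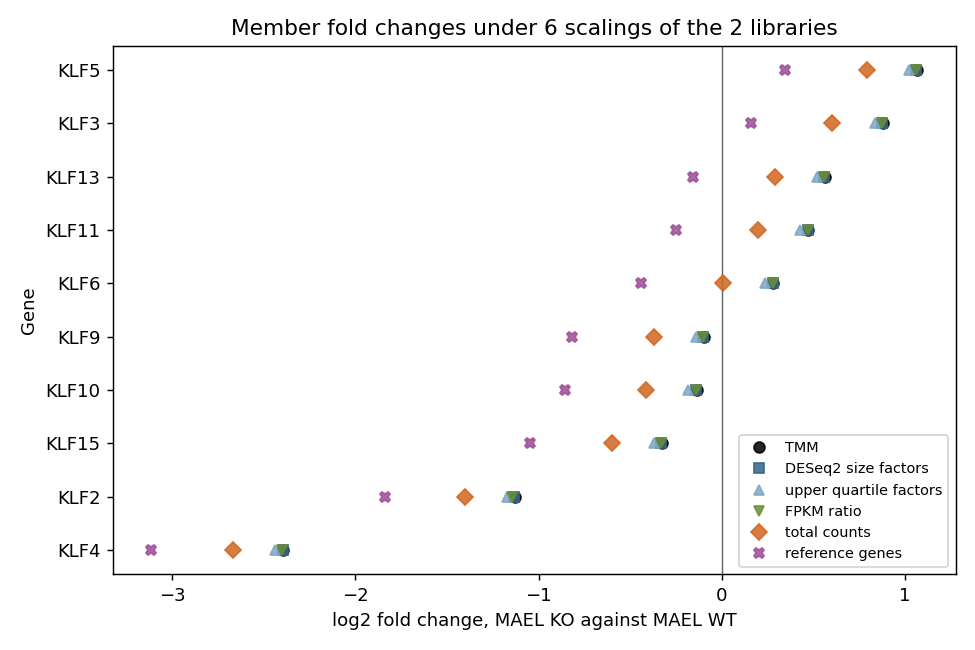
Log2 fold change, MAEL KO over MAEL WT (x axis), for each member (y axis) under TMM and 5 other scalings of the libraries, 1 symbol each. The order of the members is kept while the whole column shifts to the left with total counts and with the reference genes, and KLF4, KLF2, KLF15, KLF10 and KLF9 lie left of 0 in all of them.

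The other KLF genes were mostly silent. Of the 8 genes outside the members, KLF17 and KLF18 were listed at 0 counts in both libraries, and KLF1, the erythroid factor, had 7 and 5 counts. KLF12 had 3 and 1 counts and KLF14 had 2 in each. KLF8, a CtBP-binding repressor, had 12 and 3 counts, a log2 fold change of -1.52 with a counting interval from -4.25 to 0.10, which includes 0. KLF7 and KLF16 were the remaining expressed genes, and KLF16 had a log2 fold change of 0.20 (counting interval 0.08 to 0.31).

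The SP factors, whose zinc fingers are the closest to those of KLFs and bind the same GC boxes, lay on both sides of 0 with TMM. Of 9 genes, 8 were tested, with 5 higher and 3 lower in MAEL KO, beside 48.0% and 52.0% of all genes tested. Their median log2 fold change was 0.26 and none was past 2. With total counts 4 were higher and 4 lower, with a median of -0.02. With reference genes all 8 were lower, with a median of -0.46. SP1, the broadly expressed activator, had 1770 and 1742 counts and a log2 fold change of 0.19, and SP3 had 1448 and 2050 counts and the highest value, 0.71. The lowest was SP9, at -1.17 from 30 and 11 counts. The EGR factors, immediate-early genes whose zinc fingers also bind GC-rich DNA, had values below 0 for all 3 genes tested. EGR3, at -0.80 from 23 and 11 counts, had a counting interval from -2.04 to 0.24, which includes 0. EGR4 was at -1.24 from 26 and 9 counts (counting interval -2.60 to -0.18). EGR1 had 1883 counts in MAEL WT and 304 in MAEL KO, a log2 fold change of -2.42 (counting interval -2.60 to -2.25), close to that of KLF4.

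Among all 524 tested genes that the deposited table marks as C2H2 zinc finger factors, the median log2 fold change was 0.02. Of these, 9 were below -2 and 6 above 2, together 2.86%, against 7.80% of all genes tested. KLF4 was the 7th lowest of these and, among the 397 with at least 100 counts in 1 library, the 2nd lowest after EGR1. KLF2 was the 35th lowest and KLF5 the 45th highest of the 524. This comparison was chosen after the values were seen and gives places only.

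Genes of the pathways around the KLFs were read from lists by function. Beside the numbers higher and lower in these lists, 48.0% of all genes tested were above 0 with TMM and 52.0% below. The partners of KLF proteins (corepressors and coactivators) were all expressed, with 7 of 10 higher, a median of 0.19 and none past 2. With total counts 4 of the 10 were higher and the median was -0.08, and with reference genes 2 were higher and the median was -0.53. HDAC1, the histone deacetylase of Sin3 complexes, was the highest, with 2715 and 5075 counts and a log2 fold change of 1.11 (counting interval 1.05 to 1.18), followed by SIN3A at 0.99, whereas SIN3B was at -0.56 and the acetyltransferase KAT2B at -0.86. CTBP1 and CTBP2, the partners of KLF3, were at 0.16 and -0.21. The 6 genes of ubiquitin ligases known to act on KLF proteins lay between BTRC at -0.54 and FBXW7 at 0.50, with 3 higher and a median of 0.01. With total counts 2 were higher and the median was -0.26, and with reference genes all 6 were lower, with a median of -0.71.

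Known inducers differed by member. ERK5 signalling through MEF2 factors is known to switch on KLF2 and KLF4, and of the 6 listed genes 5 were tested, with a median of -0.70 and none past 2. All 5 values were below 0, as were 52.0% of all genes tested, but MEF2A, with 1102 and 942 counts, was at -0.02 (counting interval -0.14 to 0.11). MEF2D had 2824 counts in MAEL WT and 1146 in MAEL KO, a log2 fold change of -1.09 (counting interval -1.19 to -0.99), and MAP2K5, the kinase that activates ERK5, had 876 and 466 counts, at -0.70. MEF2B was the lowest of the list, at -1.26 from 43 and 15 counts (counting interval -2.26 to -0.43). MEF2C was listed at 0 in both libraries. For MAPK7, which encodes ERK5, the interval also included 0, at -0.20 (counting interval -0.41 to 0.01).

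Glucocorticoid response genes, to which KLF9 and KLF15 belong, lay on both sides of 0, with 3 of 8 higher and a median of -0.10. With total counts and with reference genes 2 of 8 were higher, with medians of -0.37 and -0.82. FKBP5 was at 0.99, from 1212 and 2084 counts, and TSC22D3 at -0.78, from 682 and 344 counts, while the receptor gene NR3C1 was at -0.16. The lowest of the list was SGK1, at -1.32 from 19 and 6 counts (counting interval -3.07 to -0.07). Of 16 tested clock genes, which are known to pace KLF9, KLF10 and KLF15, 6 were higher and 10 lower, with a median of -0.11, or 4 and 12 with total counts and 3 and 13 with reference genes. Among the core genes, ARNTL, CLOCK, PER1, PER2, CRY1 and NR1D2 lay between -0.25 and 0.19, while NR1D1 was at -0.45, CRY2 at 0.54 and PER3 at 1.04. At the upper end of the list were HLF, with 214 and 1445 counts and a log2 fold change of 2.96 (counting interval 2.76 to 3.18), and TEF, at 2.01 from 72 and 253 counts. DBP, which like them is a PAR bZIP factor, was lower in MAEL KO, at -0.46 from 620 and 388 counts (counting interval -0.65 to -0.28). NPAS2 was at the lower end, at -2.88 from 58 and 6 counts. Of the 9 TGF-beta early response genes tested, which go with KLF10 and KLF11, 4 were higher and none passed 2, with a median of -0.29, from JUNB at -0.92 to ID2 at 1.48. With reference genes 1 of the 9 was higher, with a median of -1.01.

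Known target genes were listed apart for KLF4 and KLF5 and for other members. Of 14 targets of KLF4 or KLF5, 8 were tested, because the markers of barrier and gut epithelium IVL, KRT4, SPRR1A and SPRR2A were listed at 0 in both libraries and ALPI and FGFBP1 had 2 counts or fewer. CDKN1A, a cell-cycle inhibitor, had 522 and 244 counts and a log2 fold change of -0.88 (counting interval -1.11 to -0.66). CCNB1, CDK1 and BIRC5, which serve mitosis, were the 3 genes above 2, with 1195 and 4776 counts for CCNB1 at 2.21 (counting interval 2.12 to 2.30). CCND1 was at 0.66 and CDH1, the E-cadherin gene, at 0.60. PDGFA was at -1.67 from 98 and 26 counts, and KRT19 had 13 and 1 counts, at -2.66 with a counting interval from -8.90 to -0.76. Its MAEL KO count is under the floor of 3 counts, and against that floor it was 3.75-fold lower, which is not past 2. In all, 5 of the 8 were higher and 3 lower, with a median of 0.63, and 3 were above 2, against 2.16% of all genes. With total counts none of the 8 was above 2 and the median was 0.36, and with reference genes 3 were higher and 5 lower, with a median of -0.09. The part of KLF4 or KLF5 in these levels was not tested.

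Of 17 targets of the other members, 14 were tested, with 10 lower and 4 higher and a median of -0.40, beside 52.0% of all genes below 0. Below -2 there were 3, against 5.64% of all genes. With total counts 12 were lower and 2 higher, with a median of -0.68, and with reference genes the numbers were the same and the median was -1.12. PLAU, the urokinase gene, had 85 and 3 counts, at -4.24 (counting interval -6.92 to -3.02). Its MAEL KO count is at the floor of 3 counts, and against that floor PLAU was 24.5-fold lower. THBD, the thrombomodulin gene that KLF2 and KLF4 are known to activate in endothelium, had 52 and 4 counts, at -3.22 (counting interval -5.42 to -2.05), and NOS3, another such gene, 53 and 20 counts, at -1.16. PRODH, an enzyme of proline breakdown linked to KLF15, had 23 and 2 counts, at -2.83 (counting interval -6.44 to -1.30). Its MAEL KO count is under the floor, and against the floor PRODH was 6.63-fold lower. The other KLF15-linked genes TAT, ACSS2 and SLC2A4 lay at 0.06, -0.43 and 0.08. TGFB1 was also lower, at -1.28 from 1114 and 397 counts (counting interval -1.45 to -1.11). The highest of the list was DIO1, from 9 and 33 counts. It was 3.90-fold higher in MAEL KO, with a counting interval from 0.99 to 3.33 on the log2 scale. LGALS3, which KLF3 is known to repress, was higher, at 1.21 from 613 and 1230 counts. CCL5, the target of KLF13, had 4 and 0 counts and was not tested.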

How the data were processed

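The authors made 1 MAEL WT and 1 MAEL KO library from total RNA with Illumina protocols. The authors deposited raw read counts per gene, and FPKM values, which are per gene length with the library sizes rescaled. Per the labels, HISAT2 2.0.5 and featureCounts 1.5.0-p3 were among the tools. The labels name build hg19, whereas 99.9% of the 58735 deposited gene positions equal those of GENCODE 29 on GRCh38, so GRCh38 was used. The listed gene length equals the bases in exons for every gene whose name starts with KLF.

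TMM factors came from edgeR 4.0.16 and a further set of size factors from DESeq2 1.42.0, both run under R 4.3.3. Fold changes of genes with at least 10 counts in 1 library, with 1 added, intervals and shares were computed in Python 3.11.15 with SciPy 1.17.1. Transcripts of GENCODE 29 were aligned with BLAST 2.17.0. Windows before RefSeq starts were searched on both strands, and overlapping matches were counted. The fold limit of 2 follows the methods of the study, whose adjusted p needs replicates that are not among the samples analysed here, and the limit of 1 was added.

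The members and the gene lists were chosen with earlier results of these data known. Genes named are the numbered KLF genes, MAEL, and some members at the ends of lists, together with list members singled out after their values were seen. Not every end of a list is named. The computation was tested on simulated data. At these depths 3 counts, the floor, are 0.151 and 0.144 CPM. Since PCR copies of a molecule cannot be recognised without identifiers, intervals and floors cover counting error only.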

Additional observations from a re-analysis of the deposited data

How the results depend on the processing

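With 1 library per group no library could be left out and no paired analysis was possible. The 2 other count filters cannot change a member's fold change, and their 20 values equal those with TMM. Of 70 member fold changes under the other 7 alternatives, 51 stayed within their counting interval, 16 moved beyond it with the same sign and 3 reversed, all 19 with total counts or reference genes. The reversed values, with the reference genes, were -0.16 for KLF13, -0.44 for KLF6 and -0.25 for KLF11. The median of the members reversed to -0.18 with total counts and to -0.63 with the reference genes, and with either scaling 0 members were above 1. By construction these scalings shift all genes alike.

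The number of tested genes above 1 was 1174 with total counts. With the reference genes 169 genes were above 2, 639 above 1, 2071 below -2 and 6774 below -1. With 5 added to the counts 250 were above 2 and 513 below -2. Without a count filter 1029 were above 2, 5304 above 1, 1773 below -2 and 5745 below -1, and with at least 100 counts 185, 1110, 283 and 1101, since each filter changes which genes are tested. The genes above made up 27.7% of those past 2 and 38.2% of those past 1, against 17.0% and 22.6% with total counts, 7.54% and 8.62% with the reference genes, 36.7% and 48.0% without a filter and 39.5% and 50.2% with at least 100 counts. Member shares were the same from FPKM by construction, since FPKM also divides the counts by gene length, so this checks nothing. Over both measures, 36 of 40 shares moved when the sum was taken over all numbered KLF genes, as the larger sum implies.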
